A study of Mus musculus with 4 samples.

Results

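Sperm surface proteins are folded in the endoplasmic reticulum of male germ cells, and a set of 9 genes that serve this step, or the surface proteins that pass through it, was followed in testis of Lrrc8a mutant mice. The genes were taken by symbol from the deposited expression table. They are the testis endoplasmic reticulum chaperone genes Clgn, Calr3 and Pdilt, their general relatives Calr, Canx and Pdia3, and the surface factor genes Tex101, Ly6k and Ace. All 9 were found among 24420 symbols, and all 9 passed the filter on low values. The mice were labelled lrrc8a MUT or WT, both of the FVB strain, with 2 libraries of testis RNA each. The labels give no age or treatment and do not state the kind of mutation. Nothing in them ties the libraries to separate mice, so each p-value reflects only how much the libraries vary, and that may be technical variation. Lrrc8a encodes an essential part of the anion channel by which cells regulate their volume, and the series concerns this channel in male infertility.

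Newly made glycoproteins carry sugar chains that are read by lectin chaperones in the endoplasmic reticulum. Calnexin and calreticulin hold a glycoprotein by these sugars while it folds, and the oxidoreductase PDIA3 shuffles its disulfide bonds. Male germ cells use these chaperones and also versions of their own, encoded by Clgn (calmegin), Calr3 (calsperin) and Pdilt. In mouse knockouts of each of these germ cell genes, and of Tex101, Ly6k or Ace, sperm ADAM3 is lost or misplaced. ADAM3 is a sperm membrane protein, and sperm without it fail to enter the oviduct and to bind the zona pellucida of the egg.

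Reads assigned to genes numbered 40426400 to 48409785 in the MUT libraries and 50162558 to 68192776 in the WT libraries. Values are CPM as deposited, which are reads divided by a scaled library size. Reads behind a listed gene ranged from 3296 for Ly6k in MUT 2 to 49893 for Ace in WT 1. The labels name germ cells as the cell type, and 8 spermatocyte, 8 round spermatid and 8 elongating spermatid markers were all above the filter. So were 9 Sertoli and 8 Leydig cell markers, which summed to 934 and 964 CPM (Sertoli) and 1144 and 1193 CPM (Leydig) in MUT 1 and MUT 2. In WT 1 and WT 2 the sums were 894 and 851 CPM (Sertoli) and 993 and 974 CPM (Leydig). The libraries therefore held RNA of somatic cells as well, while all 8 epididymis markers stayed under 1 CPM. Lrrc8a was at 13.5 and 15.9 CPM in MUT libraries, against 18.2 and 17.1 CPM in WT libraries. Its log2 fold change of -0.26 was not called (limma adjusted p = 0.218), and which exons the mutation touches is not labelled.

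None of the 9 genes was called different between genotypes at a limma adjusted p under 0.05. The background of that test was 0.749% of 15364 tested genes, so 0 calls among 9 genes is close to what that share gives and says nothing particular about them. At an unadjusted p under 0.05 there were 2, Tex101 and Ace, where 14.7% of all tested genes passed. edgeR and DESeq2 on the recovered reads also called 0 of the 9, against 0.755% and 1.08% of all tested genes. The log2 fold change, MUT minus WT on the log2(CPM + 0.5) scale, lay above 0 for 5 genes and below it for 4. Its median was 0.04, against -0.0016 over all tested genes. The median size of the change, without its sign, was 0.07 for the 9 genes and 0.09 for all tested genes. Over the 9 genes, the 95% intervals ran from -0.30 to 0.33 on the log2 scale, which is 0.814-fold to 1.26-fold. The lower bound is that of Ace and the upper bound that of Tex101, so the interval of each gene is narrower than this span. A change past those bounds lies outside all the intervals, which are not adjusted for the number of genes. For each gene, changes within its own interval are compatible with these libraries.

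The MUT and WT libraries did not overlap for 4 genes that were higher in MUT (Clgn, Pdilt, Tex101 and Ly6k) and for 1 that was lower (Ace). Among all tested genes, 23% had both MUT libraries above both WT libraries and 22.6% had both below. With so high a background, non-overlap of 2 libraries against 2 is weak evidence for any one gene. Fewer germ cells and less RNA per germ cell cannot be told apart in these whole-tissue libraries, nor can CPM show a change in the total amount of RNA.

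**Figure D1:**
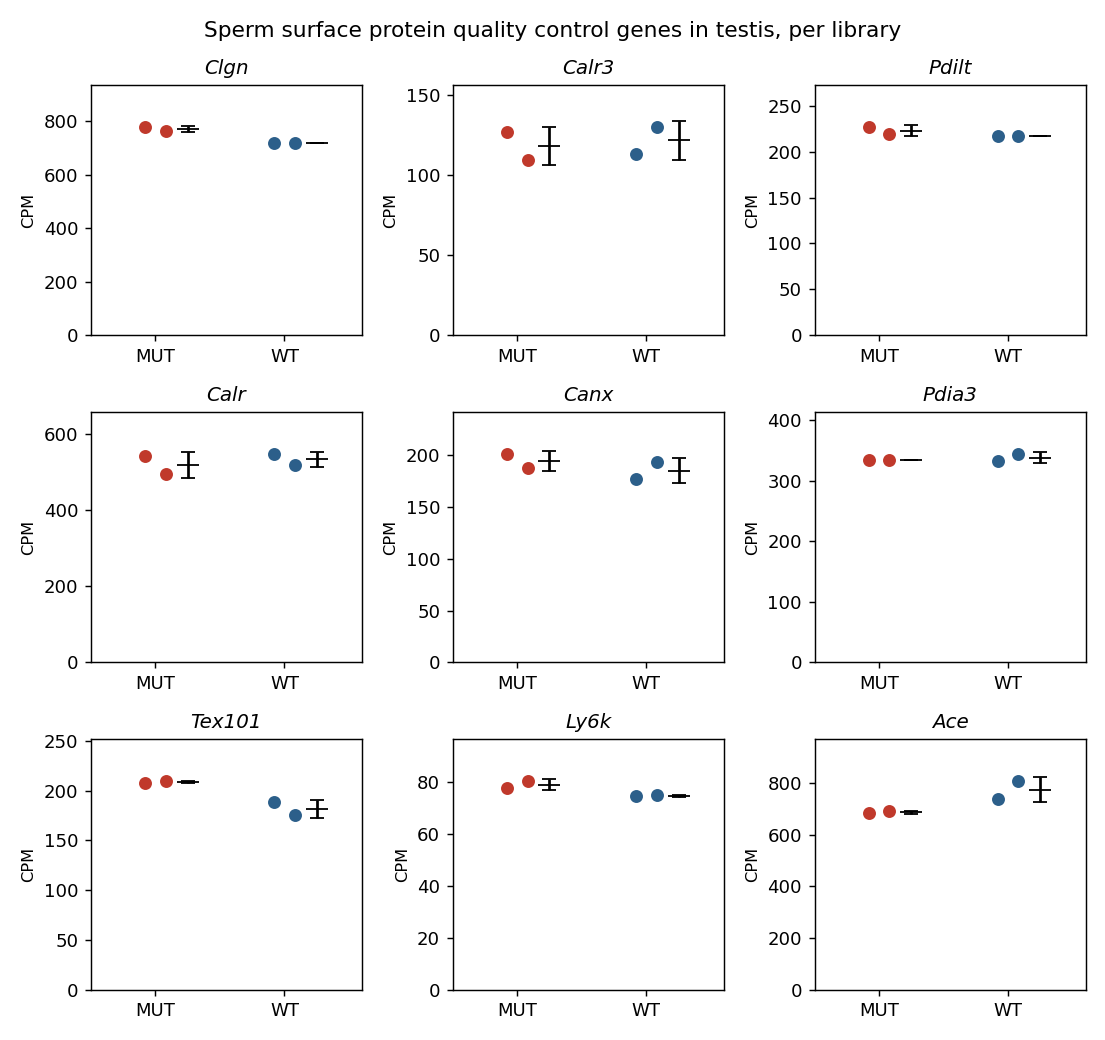
CPM of each of the 9 genes in every library, with MUT in red and WT in blue. Black bars give the mean ± SD of 2 libraries, each axis starts at 0, and the groups lie close together throughout, with Tex101 (higher in MUT) and Ace (lower in MUT) furthest apart.

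Among the testis chaperones, Clgn was the most abundant in CPM. It encodes calmegin, the germ cell counterpart of calnexin, which is needed for the ADAM1A and ADAM2 proteins to pair as fertilin. On GRCm38, Clgn spans 83389867 to 83428552 of chromosome 8 (plus strand). It was at 779 and 762 CPM in MUT libraries, against 718 and 719 CPM in WT libraries. Both MUT values lay above both WT values, which were nearly equal. The means were 771 ± 12.1 CPM in MUT and 718 ± 0.42 CPM in WT (SD, n = 2 each). The log2 fold change of 0.10 (SE 0.0571, 95% interval -0.02 to 0.22) was not called (limma adjusted p = 0.43).

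Calr3 encodes calsperin, the germ cell counterpart of calreticulin, which ADAM3 itself requires in mouse. The gene lies on the minus strand of chromosome 8 from 72424176 to 72443870. Its libraries crossed over, with 127 and 109.7 CPM in MUT libraries, against 113 and 130.2 CPM in WT libraries. The highest and the lowest value thus came one from each genotype, and the spread within a genotype was larger than the difference between the means. The means were 118 ± 11.9 CPM in MUT and 122 ± 12.1 CPM in WT (SD, n = 2 each). The log2 fold change was -0.04 (SE 0.0805, 95% interval -0.21 to 0.13, limma adjusted p = 0.861).

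Pdilt encodes a germ cell member of the protein disulfide isomerase family that works with calsperin on ADAM3. The gene is on the minus strand of chromosome 7 from 119486587 to 119523489. It was at 227 and 219 CPM in MUT libraries, against 217.1 and 217.3 CPM in WT libraries. The WT libraries were almost identical and MUT 2 stood just above them, so the groups were separated by little more than 1 CPM. Pdilt had a log2 fold change of 0.04 (SE 0.0619, 95% interval -0.09 to 0.17, limma adjusted p = 0.833). Exons of Pdilt overlap those of Acsm5 on the other strand, which had at most 0.513 CPM in any library.

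The general chaperones showed no separation of the genotypes. Calr encodes calreticulin, the soluble lectin of the endoplasmic reticulum, and lies on the minus strand of chromosome 8 from 84841850 to 84846934. It was at 543 and 496 CPM in MUT libraries, against 549 and 519.8 CPM in WT libraries, so that MUT 1 lay between the WT libraries. Its log2 fold change was -0.04 (SE 0.0629, 95% interval -0.17 to 0.09, limma adjusted p = 0.814).

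Canx encodes calnexin, the membrane-bound lectin, and lies on the minus strand of chromosome 11 from 50293961 to 50325673. Its values were 201 and 188 CPM in MUT libraries, against 176 and 193 CPM in WT libraries. MUT 2 lay below WT 2, so the groups overlapped (log2 fold change 0.07, SE 0.0678, 95% interval -0.07 to 0.21, limma adjusted p = 0.665).

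Pdia3, also called ERp57, encodes the disulfide isomerase that calnexin and calreticulin recruit to their substrates. It spans 121413775 to 121438687 of chromosome 2 (plus strand), which also carries Lrrc8a. It had the smallest log2 fold change of the 9 genes, -0.02 (SE 0.06, 95% interval -0.14 to 0.11, limma adjusted p = 0.923). The MUT libraries held 333 and 334 CPM, and the WT libraries 331 and 344 CPM on either side of them. The 5′ end of Pdia3 overlaps that of the sperm channel gene Catsper2 on the other strand, which had 252 and 259.9 CPM in MUT libraries, against 281 and 262 CPM in WT libraries. The shared stretch is short, from 121413775 to 121413792. Whether the counting used strand is not stated in the labels, so reads of that stretch may belong to either gene.

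**Figure D2:**
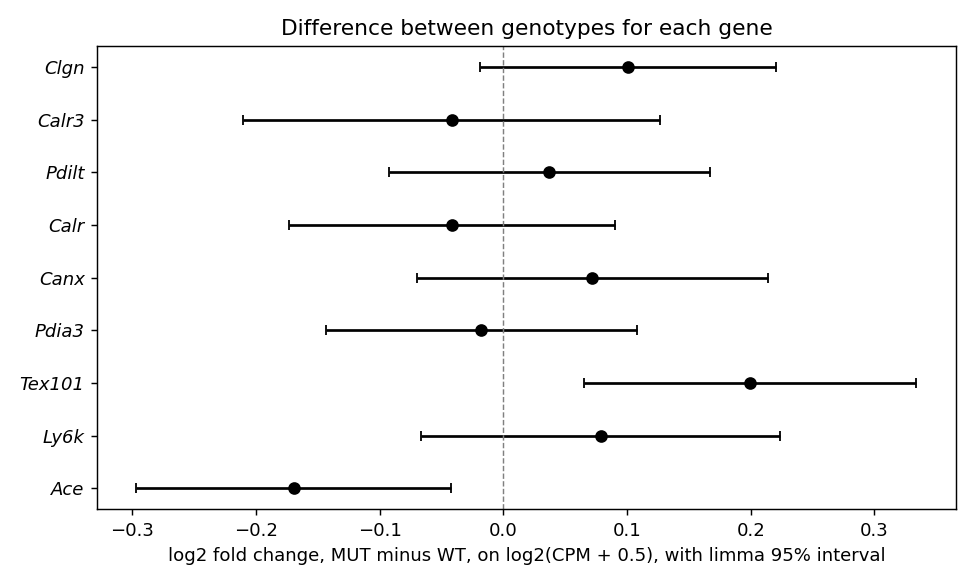
Log2 fold change, MUT minus WT, of each of the 9 genes, with limma's 95% interval that is not adjusted for the number of genes. Of the intervals, 7 include 0, while those of Tex101 (0.07 to 0.33) and Ace (-0.30 to -0.04) do not, though neither gene was called after adjustment over all tested genes.

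The surface factors held the largest differences in either direction. Tex101 encodes a protein of germ cells that is tied to the membrane by a GPI anchor and shed during sperm maturation. It lies on the minus strand of chromosome 7 from 24668007 to 24676675. The MUT libraries were at 207.8 and 209.6 CPM, against 188 and 175 CPM in the WT libraries. The MUT values were close to each other and both above WT, and WT 2 was the lowest library. The means were 209 ± 1.27 CPM in MUT and 182 ± 8.89 CPM in WT (SD, n = 2 each). The log2 fold change of 0.20 (SE 0.0641, 95% interval 0.07 to 0.33) corresponds to 1.15-fold. It was not called (limma adjusted p = 0.153), and 17.7% of all tested genes had a change at least as large.

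Ly6k encodes another GPI-anchored protein of the LY6 family that binds TEX101. It lies on the minus strand of chromosome 15 from 74796874 to 74799986 and was the least abundant of the 9 genes in CPM. It was at 77.6 and 80.5 CPM in MUT libraries, against 74.6 and 75.1 CPM in WT libraries. Both MUT libraries lay above both WT libraries by a few CPM (log2 fold change 0.08, SE 0.0693, 95% interval -0.07 to 0.22, limma adjusted p = 0.64). The whole gene lies within the antisense gene Gm17189, a symbol that the deposited expression values did not include.

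Ace encodes angiotensin-converting enzyme, a peptidase made in a short germ cell form in spermatids and a long form in somatic cells. In mouse the germ cell form is needed for TEX101 to be released from sperm and for ADAM3 to reach its place. The gene spans 105967945 to 105989964 of chromosome 11 (plus strand). It was at 684 and 692 CPM in MUT libraries, against 740.0 and 809 CPM in WT libraries. Both MUT libraries were below both WT libraries, and the gap from MUT 2 to WT 1 was smaller than that between the WT libraries. The means were 688 ± 5.65 CPM in MUT and 774 ± 48.7 CPM in WT (SD, n = 2 each). The log2 fold change of -0.17 (SE 0.0607, 95% interval -0.30 to -0.04), or 0.889-fold, was not called (limma adjusted p = 0.196).

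Markers of the cells that make the short form of ACE were measured beside it. The 8 elongating spermatid markers summed to 15513 and 14896 CPM in MUT libraries, against 16922 and 15069.6 CPM in WT libraries, with a median log2 fold change of -0.07. The 8 round spermatid markers summed to 1618 and 1652 CPM in MUT, against 1779.8 and 1645 CPM in WT, with a median of -0.04. None of these 16 genes was called, and their part in the difference in Ace was not tested. Among somatic markers, 1 of 8 Leydig (median 0.28) and 1 of 9 Sertoli genes (median 0.11) were called higher in MUT. Of 7 macrophage markers, 1 was called lower (median 0.03). All 6 peritubular myoid markers lay below 0 (median -0.25), and 0 were called. The 8 spermatocyte markers summed to 4658 and 4578 CPM in MUT libraries, against 4745 and 4796 CPM in WT libraries (median -0.06, 0 called). For the 6 endothelial markers the median was 0.03, and 0 were called. A difference in cell composition was not tested. The antisense gene Gm11651 overlaps exons of Ace and was at 11.6 and 11.5 CPM in MUT libraries, against 13.6 and 10.9 CPM in WT libraries.

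The deposited value of Ace sums its transcripts, whose promoters lie apart within the gene. The annotated transcript that runs from the first start, Ace-201, is 4906 nt long, and the one at the inner start, Ace-202, is 2418 nt long. The 250 bases before each RefSeq start (GRCm38.p6) are shown, because the gene count cannot say which of them the reads came from. Capitals mark TGAGGTCA, a variant of the cAMP response element known from the germ cell promoter of Ace, and CCAAT or its reverse complement ATTGG. Windows of Tex101, the gene with the smallest p of the 9, and of Calr3 are set beside them. The Calr3 window was printed because it holds TGAGGTCA, which begins 220 bases before its start. The other Calr3 window, chr8:72435157-72435406, lacks it and is not printed. The Tex101 window lies before the start of Tex101-201. The longer annotated transcript Tex101-202 starts further upstream, at 24676675, outside that window. All printed windows are written 5′ to 3′ on the strand of the gene.
Ace, inner start, chr11:105974939-105975188, plus strand: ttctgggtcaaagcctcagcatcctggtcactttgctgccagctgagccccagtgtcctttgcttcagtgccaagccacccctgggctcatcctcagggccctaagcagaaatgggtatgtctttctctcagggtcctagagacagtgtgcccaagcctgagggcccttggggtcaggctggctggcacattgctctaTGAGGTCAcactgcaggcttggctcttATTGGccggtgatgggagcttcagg
Ace, first start, chr11:105967698-105967947, plus strand: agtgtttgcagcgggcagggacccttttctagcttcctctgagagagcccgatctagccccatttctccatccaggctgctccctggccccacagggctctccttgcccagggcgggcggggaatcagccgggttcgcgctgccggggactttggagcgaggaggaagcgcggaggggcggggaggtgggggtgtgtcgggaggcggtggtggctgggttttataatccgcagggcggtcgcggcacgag
Tex101, chr7:24672051-24672300, minus strand: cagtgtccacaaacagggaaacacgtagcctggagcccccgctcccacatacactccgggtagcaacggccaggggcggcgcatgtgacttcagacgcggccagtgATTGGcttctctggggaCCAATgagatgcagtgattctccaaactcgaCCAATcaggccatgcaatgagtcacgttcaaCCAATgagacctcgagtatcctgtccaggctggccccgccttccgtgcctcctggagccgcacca
Calr3, chr8:72443779-72444028, minus strand: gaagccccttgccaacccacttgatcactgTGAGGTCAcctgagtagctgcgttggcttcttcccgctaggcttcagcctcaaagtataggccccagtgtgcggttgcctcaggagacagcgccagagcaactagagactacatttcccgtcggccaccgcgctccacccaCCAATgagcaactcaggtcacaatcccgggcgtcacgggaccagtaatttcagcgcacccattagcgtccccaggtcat

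The windows of the Ace starts differ in their letters. TGAGGTCA begins 52 bases before the inner start, and ATTGG begins 25 bases before it. The window of the first start holds neither, but has GGGCGG at 4 places, of which a pair overlap. Its GC content is 67.2% with 19 CG pairs, against 58% with 1 CG pair before the inner start. The median over 32536 RefSeq promoter windows of the same length was 52.4% with 6 CG pairs.

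RefSeq promoter entries matched 7 of the 9 genes, with 9 windows in all. Of these windows, 8 hold CCAAT on either strand, as do 33.81% of all promoter windows. The Tex101 window, which lies before the start of Tex101-201 only, holds 4, a number reached by 0.842% of all windows. TGAGGTCA, searched on both strands, is in 2 of the 9 windows and in 1.95% of all windows. GGGCGG on either strand is in 5 of the 9 windows and in 32.97% of all. Apart from the pair of GGGCGG at the first start of Ace, no matches overlap in the printed windows. The letters of the motifs were chosen with the sequences in view. A match is a description of the letters and not a binding site.

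Levels were compared between genes per kb of the longest annotated transcript. Calr was the highest, with a mean of 241 CPM per kb over the 4 libraries, and Canx the lowest at 44.3 CPM per kb. Clgn came next to Calr at 191 CPM per kb, followed by Tex101 at 160.03, Ace at 149, Pdia3 at 121, Pdilt at 103, Ly6k at 97.3 and Calr3 at 67.8 CPM per kb. The library ranges of Tex101 and Ace overlapped, and their order turned between libraries, so it is not set by the data. Those of Pdilt and Ly6k also overlapped across libraries. Within each library Pdilt was above Ly6k, though barely so in MUT 2 (101.9 against 101.8 CPM per kb). The other neighbours did not overlap in any library. In the MUT libraries Tex101 was at 170.3 and 172 CPM per kb, and Ace at 139 and 141 CPM per kb. In WT 1 the values were 154 for Tex101 and 151 for Ace, and in WT 2 they were 144 and 165 CPM per kb. The length used matters for Ace, since with the 2418 nt of the inner transcript its mean was 302 CPM per kb, above all the others. With the union of all annotated exons, Clgn (185 CPM per kb) stood above Calr (183) and Ace (138) above Tex101 (118).

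**Figure D3:**
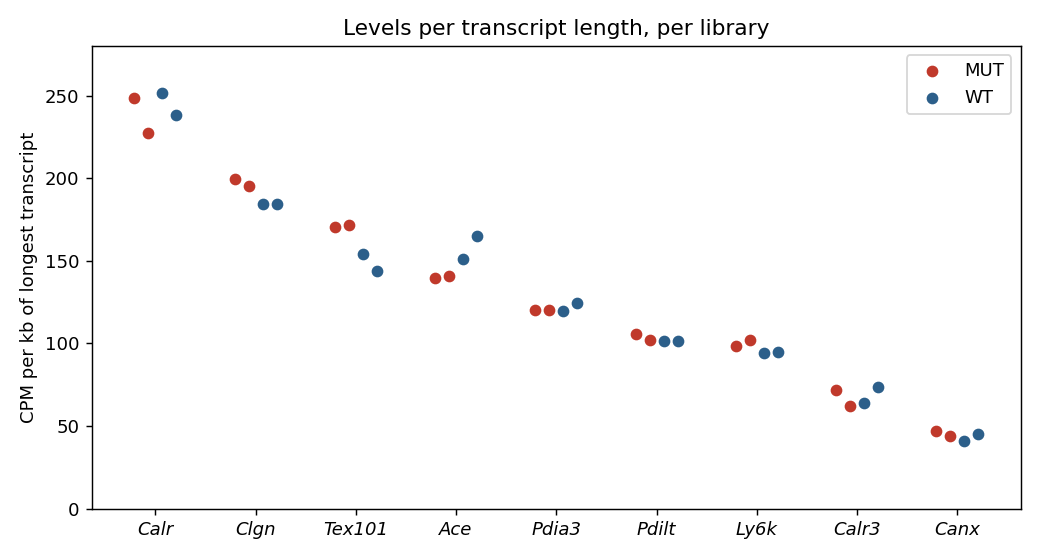
CPM per kb of the longest annotated transcript for each gene in every library, with MUT in red and WT in blue, ordered by the mean. The values run from between 227 and 251 for Calr down to between 41.2 and 47 for Canx.

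The share of each testis chaperone relative to its general counterpart was taken within a library, where scaling has no effect. Clgn stood at 3.87 and 4.06 times the CPM of Canx in MUT libraries, against 4.07 and 3.72 times in WT libraries. Per kb of transcript the same ratio was 4.25 and 4.46 in MUT and 4.47 and 4.08 in WT. The calnexin pair was thus dominated by the germ cell gene in every library. The genotypes overlapped, with a difference of 0.03 in the mean log2 ratio.

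In the calreticulin pair the general gene dominated. Calr3 was at 0.233 and 0.221 times the CPM of Calr in MUT libraries, against 0.206 and 0.2505 times in WT libraries. The WT libraries enclosed both MUT values, and the mean log2 ratios were -2.14 ± 0.0541 in MUT and -2.14 ± 0.2 in WT (SD, n = 2 each).

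Pdilt stood at 0.681 and 0.655 times the CPM of Pdia3 in MUT libraries, against 0.655 and 0.632 times in WT libraries. MUT 2 and WT 1 nearly coincided, at log2 ratios of -0.6098 and -0.6106, and the difference of 0.06 in the mean is near the spread of the libraries (SD 0.0396 in MUT and 0.0371 in WT, n = 2 each). With 2 libraries per genotype, the smallest p of an exact two-sided permutation test is 0.333. The test gave 1 for the calnexin pair, 1 for the calreticulin pair and 0.333 for Pdilt over Pdia3.

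**Figure D4:**
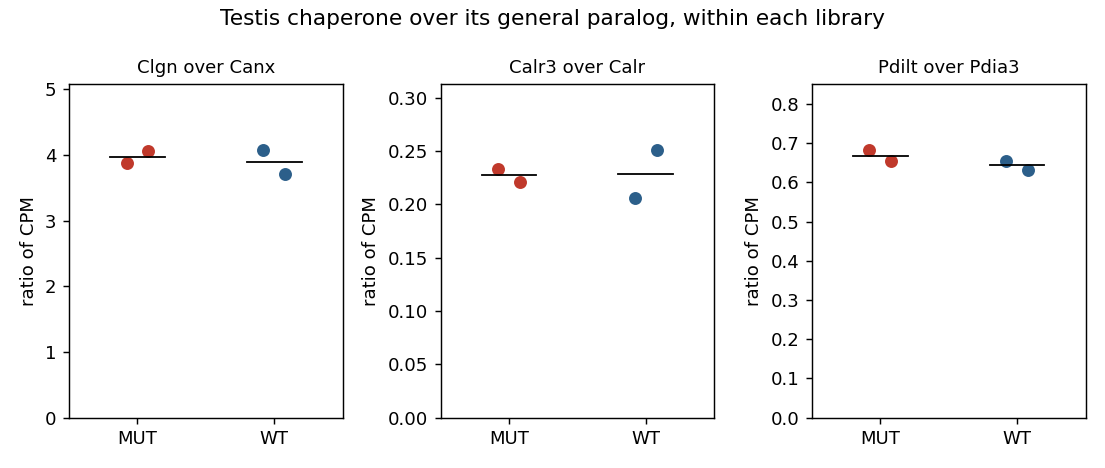
Ratio of the CPM of each testis chaperone gene to that of its general counterpart in every library, with MUT on the left and a line at the mean. The ratios are near 4 for Clgn over Canx, between 0.206 and 0.2505 for Calr3 over Calr, and between 0.632 and 0.681 for Pdilt over Pdia3.

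The main client of these chaperones and its partners were measured too. Adam3 was at 1148 and 1253 CPM in MUT libraries, against 1231 and 1243 CPM in WT libraries, which lay between the MUT values. Its log2 fold change was -0.04 (SE 0.0596, limma adjusted p = 0.78). For the fertilin subunit genes, Adam2 had 406 and 399.7 CPM in MUT, against 402 and 418 CPM in WT. Adam1a was at 183 and 180.1 CPM in MUT libraries, against 177 and 172 CPM in WT libraries, a log2 fold change of 0.06. Its relative Adam1b was at 114 and 116 CPM in MUT, against 121 and 105 CPM in WT, a log2 fold change of 0.03.

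Of 15 genes in the list of ADAM3, fertilin and other factors that sperm ADAM3 needs, 0 were called, 4 lay above a log2 fold change of 0 and 11 below, and the median was -0.03. The smallest p values were those of Rnase10 and Adam5. Rnase10, which encodes an inactive ribonuclease-like protein mainly of the epididymis, was at 4.84 and 4.98 CPM in MUT, against 4.2 and 3.56 CPM in WT (log2 fold change 0.31, limma adjusted p = 0.276). Adam5 was at 1255 and 1199.8 CPM in MUT, against 1281 and 1329 CPM in WT (log2 fold change -0.09, limma adjusted p = 0.499). Lypd4, which encodes a GPI-anchored sperm protein of the LY6 family, had 559 and 597 CPM in MUT libraries, against 624 and 552 CPM in WT libraries, so the groups overlapped.

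Around the calnexin cycle, no other gene was called. Of 29 genes for glycoprotein folding and disposal, 19 lay above a log2 fold change of 0 and 10 below, with a median of 0.04 (0.01 without WT 1). Hspa5, which encodes the chaperone BiP, was at 459 and 452 CPM in MUT, against 461 and 467 CPM in WT (log2 fold change -0.03). Hsp90b1, which encodes the chaperone GRP94, was at 656 and 609 CPM in MUT, against 638 and 652 CPM in WT. Uggt1, the enzyme that adds back a glucose to misfolded glycoproteins so that they return to the lectins, had a log2 fold change of 0.07, at 38.5 and 35.8 CPM in MUT and 34.4 and 36.1 CPM in WT.

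The smallest p values in that list belonged to disposal genes. The direction was mixed over the whole list, with 19 genes above 0 and 10 below, and log2 fold changes from -0.13 to 0.25. Sel1l, a subunit of the complex that passes misfolded proteins to the proteasome, was at 68.2 and 69.1 CPM in MUT, against 56.3 and 61.3 CPM in WT (log2 fold change 0.22, limma adjusted p = 0.164). Edem3, which trims mannose from glycoproteins bound for disposal, was at 24.7 and 23.6 CPM in MUT, against 17.8 and 22.8 CPM in WT (0.25, limma adjusted p = 0.254). Both genes had MUT libraries above the WT libraries, as did 23% of all tested genes, and WT 1 was the lowest library for each.

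Of 16 tested genes for other disulfide isomerases and oxidases, 12 lay above a log2 fold change of 0 and 4 below, with a median of 0.06. P4hb, the founding member of the family, was at 89.2 and 88.2 CPM in MUT, against 92.5 and 91.1 CPM in WT. Txndc12 was lower in both MUT libraries (34.9 and 34.7 CPM, against 37.1 and 40.4 CPM in WT). The oxidase gene Ero1a, listed as Ero1l, was at 20.4 and 19.4 CPM in MUT, against 16.6 and 18.5 CPM in WT. Neither was called (limma adjusted p = 0.388 for each).

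The 12 subunits of the oligosaccharyltransferase, which attaches the sugar chains, were split evenly, with 6 above 0 and 6 below. Their median was 0.02, and 0.08 without WT 1. Stt3a, one of its catalytic subunits, was at 83.8 and 81.4 CPM in MUT, against 72.3 and 71.5 CPM in WT (log2 fold change 0.20, limma adjusted p = 0.182). Tusc3, an oxidoreductase subunit, was at 54 and 54.7 CPM in MUT, against 48.1 and 48.5 CPM in WT (0.17, limma adjusted p = 0.288).

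Of 15 tested sensors and targets of the unfolded protein response, 11 were above 0 and 4 below, with a median of 0.07. Their smallest p values pointed in opposite directions. Herpud1, a target gene of the response, was at 175 and 177 CPM in MUT, against 192 and 211 CPM in WT (log2 fold change -0.20, limma adjusted p = 0.173). Atf6, one of the sensors, was at 35.6 and 35.3 CPM in MUT, against 30.8 and 31 CPM in WT (0.19, limma adjusted p = 0.254).

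TEX101 and LY6K depend on the enzymes that build GPI anchors. Of 27 tested genes for this pathway, 15 were above 0 and 12 below, with a median of 0.02 (-0.02 without WT 1). Pigg was at 22.9 and 22.7 CPM in MUT, against 19.1 and 17.4 CPM in WT (log2 fold change 0.31, limma adjusted p = 0.107). Pign was at 28.1 and 31.7 CPM in MUT, against 25.9 and 23.7 CPM in WT (0.26, limma adjusted p = 0.175). Both encode transferases that add ethanolamine phosphate to the anchor. Both had MUT libraries above the WT libraries, as did 23% of all tested genes.

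Among 16 tested relatives of Tex101 and Ly6k in the LY6 and uPAR family, 8 were above 0 and 8 below, with a median of 0.0016. Ly6d, near the filter at 1.39 and 2.13 CPM in MUT and 1.47 and 0.885 CPM in WT, had a log2 fold change of 0.43 and overlapping groups. Ly6g6c was at 32.4 and 31.9 CPM in MUT, against 36.9 and 34 CPM in WT (-0.14, limma adjusted p = 0.446).

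For the renin-angiotensin genes beside Ace, 7 were tested, 3 above 0 and 4 below, with a median of -0.03 (-0.12 without WT 1). Agt, which encodes the precursor of the peptide that ACE cuts, was at 4.24 and 3.96 CPM in MUT, against 5.35 and 6.25 CPM in WT libraries (log2 fold change -0.45, SE 0.128, limma adjusted p = 0.104). Anpep, an aminopeptidase gene, had 1.87 and 1.29 CPM in MUT libraries, against 1.78 and 2.31 CPM in WT libraries, with overlapping groups.

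Over all 8 lists, 134 distinct genes were tested and limma called 0, as did edgeR and DESeq2. At an unadjusted p under 0.05 there were 15 of them (11.2%), below the 14.7% of all tested genes. The median log2 fold change was 0.03, with 77 genes above 0 and 57 below. Without WT 2, Edem3 was called higher in MUT (log2 fold change 0.43, limma adjusted p = 0.04997), and this was the only call of a listed gene in the alternatives that were run.

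**Figure D5:**
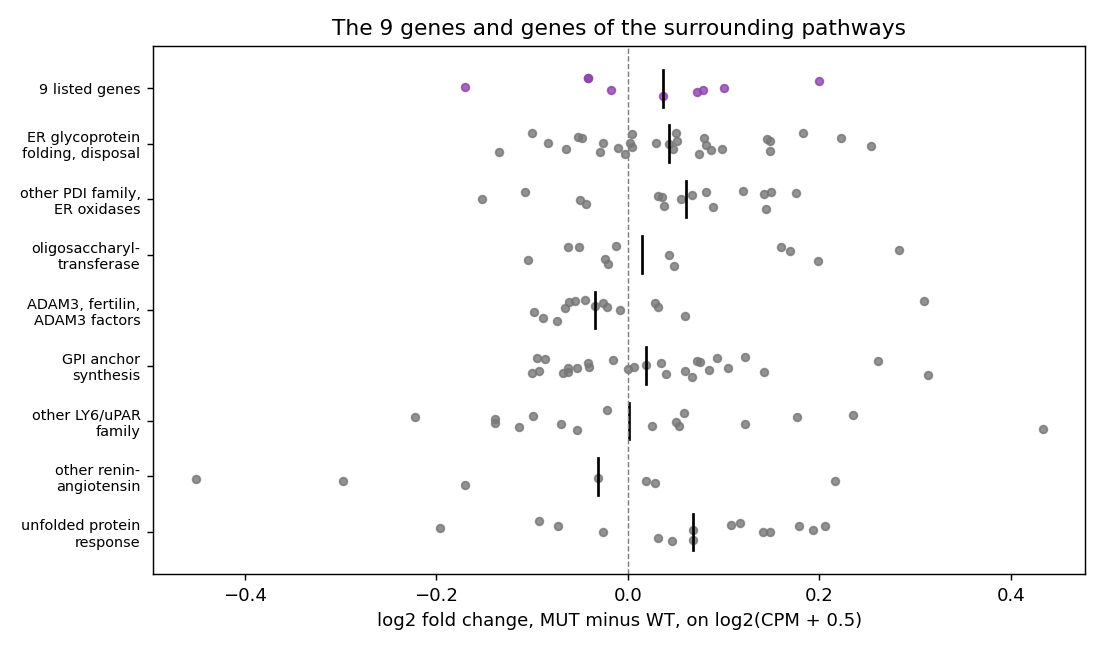
Log2 fold change, MUT minus WT, of the 9 genes and of each tested gene in 8 lists of related genes, with a line at each median. Every median lies between -0.03 and 0.07, and no point was called.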

How the data were processed

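RNA of testis tissue was sequenced in 2 MUT and 2 WT libraries made, per the labels' protocols, with a stranded kit that selects polyadenylated RNA. The authors deposited CPM for 24420 symbols. The submitters' processing notes name TopHat2 2.0.10, HTSeq 0.6.0, edgeR 3.8.6 and mm10 without roles. Every value was a whole multiple of the smallest value of its library (100% within 0.001 of a whole read), which recovered the reads. A floor of 3 reads lay between 0.0445 CPM in WT 1 and 0.0733 CPM in MUT 2 (counting error alone).

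Symbols with at least 1 CPM in at least 2 libraries were kept. log2(CPM + 0.5) of the deposited CPM was tested with limma 3.58.1 (eBayes with a mean-variance trend, R 4.3.3) as a two-sided test, and p-values were adjusted by Benjamini-Hochberg across the 15364 tested genes. Intervals are limma's 95% intervals. Calls are adjusted p-values under 0.05. Fold changes on this scale understate those of low genes. On the recovered reads, edgeR 4.0.16 called 75 higher and 41 lower genes and DESeq2 1.42.0 called 94 and 72. The 9 genes, the lists and the alternatives were chosen with earlier results of these data known. Named list genes are those called, otherwise the 2 with the smallest p of each list, and 9 genes fixed by name. Symbols were matched as listed or, for 8 genes, by RefSeq synonym. Positions are 1-based, from GENCODE vM21 on GRCm38, and promoters from RefSeq GRCm38.p6. The fit was checked on simulated reads, with 2 libraries against 2. It called 20% of genes changed 1.2-fold and 78% of genes changed 1.5-fold, so small changes were mostly missed. The changed genes were drawn from all genes that passed the filter, so these shares were not found for the 9 genes themselves. The median SE was 0.063 for the 9 genes and 0.095 for all tested genes.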

Additional observations from a re-analysis of the deposited data

How the results depend on the processing

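None of the 9 genes was called under any of 14 alternatives, of which the crossed replicate block was chosen after seeing the data. Tex101 kept a log2 fold change between 0.15 and 0.25, and Ace one between -0.23 and -0.11. The lowest limma adjusted p of each was reached without WT 1, at 0.0636 for Tex101 and 0.0669 for Ace. Clgn, Pdilt, Canx and Ly6k also kept their direction. The direction of Calr turned with quantile normalization (0.0109) and without MUT 2 (0.0236), where leaving out a library gave -0.11 to 0.0236. That of Calr3 turned without MUT 2 (0.061) and without WT 2 (0.0597), in a range of -0.14 to 0.061. That of Pdia3 turned with quantile normalization (0.0193), without the 100 most abundant genes in the scaling (0.0048) and without WT 2 (0.0092), and leaving out a library gave -0.0444 to 0.0092. Over the 134 listed pathway genes, leaving out a library gave 0 to 1 calls higher in MUT and 0 lower. List medians moved by more than the spread between libraries in 9 of 112 cases. The settings with no filter, no variance trend or a replicate block leave fold changes as they are, so their cases could not move. All moves were in the lists for glycoprotein folding, GPI anchors and the oligosaccharyltransferase. Without a library the medians ranged from 0.0039 to 0.0765 for the oligosaccharyltransferase, 0.0105 to 0.0392 for glycoprotein folding and -0.0153 to 0.0217 for GPI anchors. They ranged from -0.0624 to 0.057 for the LY6 family and -0.121 to -0.0041 for renin-angiotensin genes.

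Over all genes, 74 were called higher and 41 lower in MUT. The counts were 7 and 4 with no filter on low values, 35 and 18 with quantile normalization, 5 and 2 with no variance trend, 113 and 37 without the 100 most abundant genes in the scaling (75.3% of calls higher, against 64.3%), and 94 and 72 with DESeq2. Leaving out a library gave 71 to 115 higher and 43 to 165 lower, the most without WT 1 and 89 lower without MUT 2. The cause was not tested. The replicate numbers do not pair the libraries by their labels: same-numbered deviations correlated at -0.13, and a replicate block gave 57 and 31 calls. The crossed pairing gave 131 and 104. Without one library, the lone sample of a genotype is assumed to vary like the others.

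The log2 ratio difference ranged from -0.04 to 0.09 for Clgn over Canx, -0.14 to 0.14 for Calr3 over Calr and 0.03 to 0.08 for Pdilt over Pdia3 when a library was left out. The order of levels per kb kept 5 of 9 ranks with the union of exons, and 5 with the inner transcript of Ace, a length chosen after seeing the data.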
